A study of Schmidtea mediterranea with 15 samples.

Results

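Planarians are flatworms that rebuild lost body parts. Their adult stem cells, called neoblasts, divide and feed a new outgrowth, the blastema, at the wound, while the old tissue is remodelled to the new proportions. A trunk fragment lacks the head, which carries the brain and the eyes, and the tail, and has to form both again. The sexual biotype of Schmidtea mediterranea is a hermaphrodite that matures ovaries, testes and accessory glands as it grows, and juveniles have not yet completed that step.

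The transcripts described here were more abundant in whole juveniles than in freshly cut trunk fragments and were still well below the juvenile level in fragments that had regenerated for 7 days. They are 142 of the 91522 records with identifiers of 1 transcriptome assembly (GDAG), in a table of 92053 records. Members were chosen by measured values: counts divided by the library total and scaled to counts per 1000000 (CPM), averaged over 3 libraries. A member had at least 1 CPM in juveniles, at least 2.5 times the day 0 level in juveniles, and a day 7 level under 50% of the juvenile one. Of the 463 records that met both juvenile criteria, these 142 stayed under 50% at day 7 and the other 321 reached it. The libraries of day 0, day 7 and juveniles therefore made the choice, and what they show of the members is a description. The libraries of days 3 and 5 took no part in it.

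Poly(A) RNA was sequenced from trunk fragments on day 0 and after 3, 5 and 7 days of regeneration, and from whole juvenile animals. All came from the sexual S2F2 biotype, with 3 libraries in each of the 5 groups and no other treatment in the labels. Total counts ranged from 20338464 to 59034917 per library. The labels do not say whether replicates were separate animals, so a p-value reflects how far these particular libraries spread, and part of that may be technical. Intact juveniles and adult trunk fragments differed in body part, in stage and in being cut. The fragments of days 3, 5 and 7 were also regenerating. These differences cannot be told apart here.

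The identifiers are not paired with gene names in the files, so no role, cell type or pathway can be given for a member. The names of 4 members are printed, chosen by their test of day 5 against day 3. The others are referred to by their place in the order of juvenile levels, and those described singly were picked after their values had been seen, as the most abundant of a group or for their course. In whole fragments, fewer cells of a type and less RNA per cell cannot be told apart.

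The members were mostly scarce transcripts, led by a few abundant ones. In juveniles 52 of them lay between 1 and 2 CPM, 53 between 2 and 10 CPM, 26 between 10 and 100 CPM and 11 above 100 CPM. The 10 most abundant held 59.6% of the members' juvenile signal, and the first alone held 12.5%. Depth was sufficient to measure every member in juveniles, where the lowest sum over 3 libraries was 90 counts. In fragments some were at the limit of detection: 132 of the 142 had a count in each day 0 library, and 5 had none in any.

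Together the members took 0.115% ± 0.00286 of the counts on day 0, 0.119% ± 0.00325 on day 3, 0.119% ± 0.00889 on day 5, 0.119% ± 0.0198 on day 7 and 0.335% ± 0.0421 in juveniles (SD, n = 3 each). By library the sum was 1129, 1148 and 1186 CPM on day 0 and 1160, 1224 and 1181 CPM on day 3. It was 1112, 1171 and 1286 CPM on day 5 and 994, 1181 and 1389 CPM on day 7, against 3329, 3777 and 2935 CPM in juveniles. Every fragment library was below the lowest juvenile one, and the 4 fragment groups overlapped. Day 7 libraries were spread most among the fragments, with replicate 1 the lowest in 76 members and replicate 3 the highest in 87. Without the 10 most abundant members the sums were 415 ± 4.68, 440 ± 8.99, 457 ± 42.6 and 470 ± 78.1 CPM on days 0, 3, 5 and 7, and 1351 ± 182 CPM in juveniles.

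**Figure D1:**
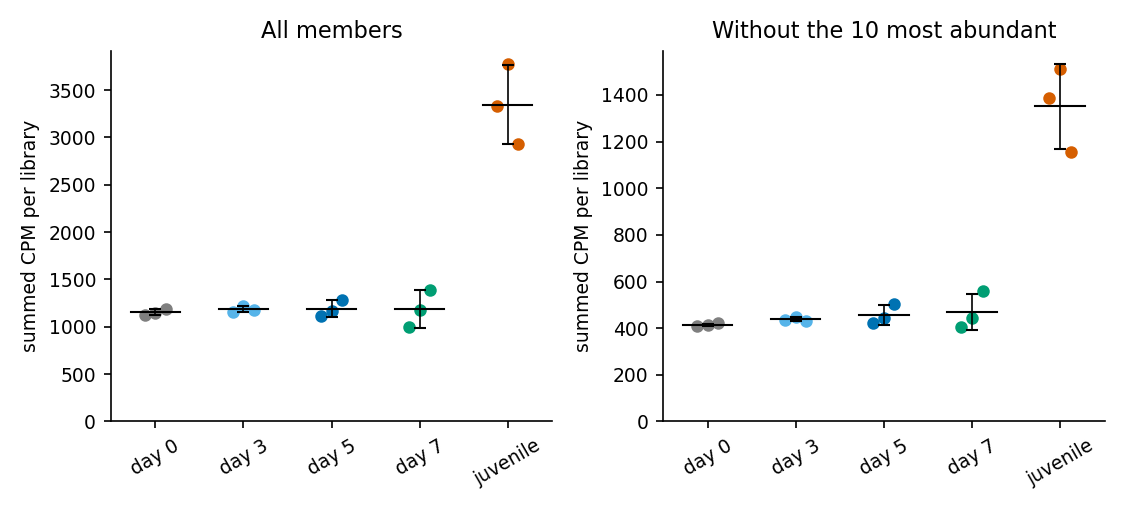
Summed CPM of the members in each library (points), with group means (lines) and SD (error bars, n = 3), for all 142 members (left) and without the 10 most abundant (right); both axes start at 0. All fragment libraries lie between 994 and 1389 CPM in the left panel, and the juvenile libraries between 2935 and 3777 CPM.

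The scale of the libraries matters for the choice. With counts divided by library totals, the median tested record was itself 0.34 higher on the log2 scale in juveniles than on day 0. After TMM scaling, edgeR's trimmed-mean normalization, which centres the bulk of the records, that median was 0.07. On TMM-scaled sizes 76 of the 142 members still reached 2.5 times the day 0 level, 104 were still under 50% of the juvenile level at day 7, and 52 met the whole rule. The lowest juvenile excess among members was then 2.06-fold, and the highest day 7 level was 55.1% of the juvenile one. The summed level on that scale was 1268 ± 58.2, 1191 ± 17.6, 1188.5 ± 64.6 and 1189 ± 178 CPM on days 0, 3, 5 and 7, and 3039 ± 455 CPM in juveniles. So the members were below juveniles on both scales, while a slight excess of day 3 over day 0 turned into a slight deficit. The ratio of day 5 to day 3 was hardly touched: the median record lay at 0.00 on the log2 scale either way.

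The edges of the choice were crowded. Among juvenile-high records 40 members had a day 7 level from 45% to under 50% of juveniles, and 49 records outside had one from 50% to under 55%. The nearest on each side stood at 49.9% and 50.1%. The smallest juvenile excess inside was 2.501-fold and the largest outside 2.494-fold, and 49 records with a 2-fold to 2.5-fold excess met the other criteria.

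The rule was also applied with 1 replicate number left out, and the chosen records were read in the libraries left out. The labels do not say whether replicates were separate animals, so this is a description and no independent check. When replicate 1 of day 0, day 7 and juveniles was left out, 138 records were chosen, and 77 of them (55.8%) passed both fold criteria in the 3 libraries left out. Without replicate 2 it was 76 of 156 (48.7%), and without replicate 3 it was 54 of 176 (30.7%). Of all 22608 GDAG records with at least 1 CPM in juveniles, 1.04%, 0.845% and 0.765% passed both in the same libraries. The juvenile library left out was above its day 0 and day 7 counterparts for 134 of 138, 142 of 156 and 166 of 176 records. For all GDAG records with at least 1 CPM in juveniles it was so in 64.0%, 57.6% and 62.7%, on library totals, which set juveniles slightly higher. The 3 sets chosen in this way held 109, 103 and 119 of the 142 members.

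In the edgeR fit of all 15 libraries, all 142 members had enough counts to be tested, and calls were made at a Benjamini-Hochberg adjusted p under 0.05. In juveniles 139 members were called higher than on day 0, as were 12.1% of all 46736 tested records. At day 7, 128 members were called lower than in juveniles, beside 3.21% of all records. For all 142 members every day 7 library lay below every juvenile library, beside 26.5% of all tested records. All 3 counts follow from the choice, and nothing is read from them.

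The members fell into groups by how far juveniles exceeded day 0. For 110 the excess was under 4-fold, for 18 it was from 4-fold to under 10-fold, and for 14 it was at least 10-fold. These bounds were set after the values had been seen. On TMM-scaled sizes 27 of the 110, 14 of the 18 and 11 of the 14 met the whole rule. That rule includes the juvenile floor of 1 CPM, and TMM scaling lowered the juvenile values. Among the 14, the lowest juvenile means on library totals were 1.04, 1.06 and 1.10 CPM, close to that floor.

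The 110 transcripts with the small excess include all of the 10 most abundant members, and their median moved little in the fragments. The choice and the bounds of the group limit their day 0 and day 7 levels, so this is partly fixed. Their median level was 34.3% of the juvenile one on day 0, 36.0% on day 3, 40.7% on day 5 and 40.1% on day 7. For 69 of the 110, the means of the 4 fragment groups lay within 1.5-fold of each other. So they did for 71 of all 142 members (50%), and for a larger share, 79.4%, of all GDAG records at 1 CPM or more. At day 7 the sum of the 110 was 1121 ± 179 CPM, against 3057 ± 373 CPM in juveniles (SD, n = 3).

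**Figure D2:**
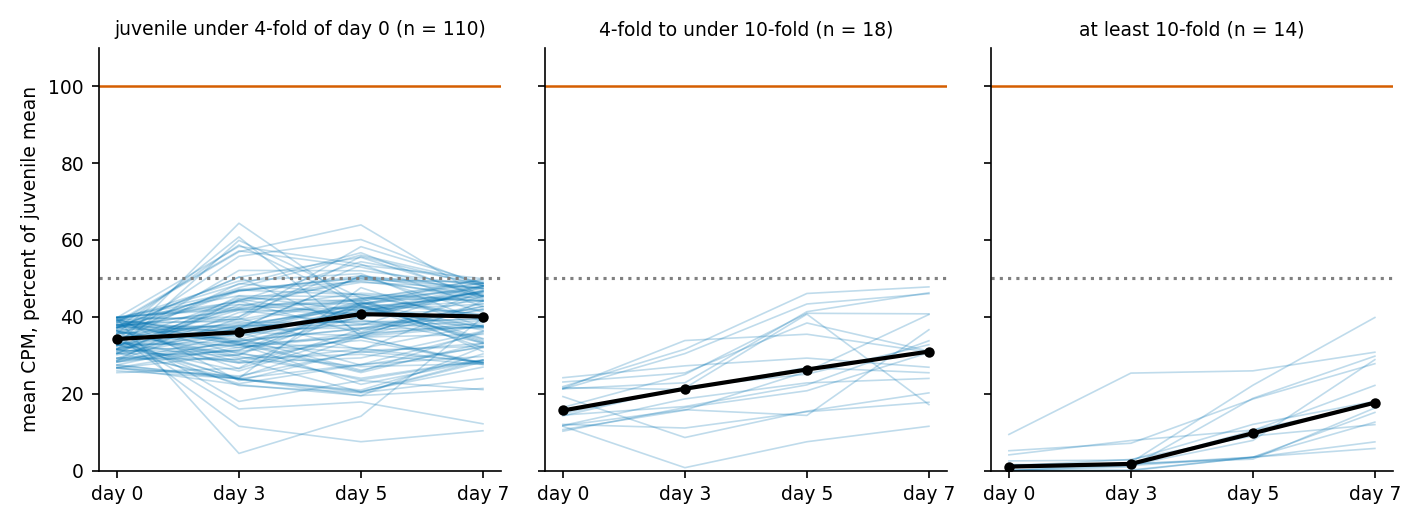
Mean CPM of each member as a percent of its juvenile mean on days 0, 3, 5 and 7 (thin lines), with the median over members (black) and the juvenile level (line at 100); the dotted line marks 50%. The median of the 110 members in the left panel stays between 34.3% and 40.7%, that of the 18 in the middle panel is 15.7% on day 0 and 31.0% on day 7, and that of the 14 in the right panel is 1.07% on day 0 and 17.7% on day 7.

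The most abundant member had 160, 173 and 160 CPM on day 0 and 145, 149 and 122 CPM on day 3. It had 62.8, 123 and 136 CPM on day 5 and 98.8, 141 and 178 CPM on day 7, against 413, 528 and 319 CPM in juveniles. Day 5 replicate 1 was its lowest library. Its day 3, 5 and 7 libraries overlapped, and its day 0 libraries lay within the range of day 7. This replicate was under 66.7% of both other day 5 libraries for 15 of the 142 members. The second member had 122, 117 and 147 CPM on day 0, 117, 112 and 147 on day 3, 140.0, 142 and 117 on day 5 and 113, 105 and 119 on day 7, against 329, 388 and 296 CPM in juveniles. Its 12 fragment libraries formed 1 band with no order by day. The third had 72.6, 72.3 and 72.3 CPM on day 0, 76.0, 93.8 and 72.4 on day 3, 78.5, 72.8 and 91.9 on day 5 and 62.1, 85.5 and 100.4 on day 7, against 205, 252 and 173 CPM in juveniles. Again the fragment groups overlapped and the juvenile libraries stood clear above them. Among the 10 most abundant members the day 3 level was between 31.1% and 46.7% of the juvenile one, and the day 5 level between 25.5% and 50.7%.

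For the other 41 of the 110 the means of the 4 fragment groups spread by more than 1.5-fold, in differing courses. The fourteenth most abundant member had 22.2, 24.8 and 14.4 CPM on day 0 and 59.4, 39.0 and 23.3 CPM on day 3. It had 20.4, 13.7 and 46.5 CPM on day 5 and 31.0, 13.5 and 24.5 CPM on day 7, against 72.2, 66.4 and 50.5 CPM in juveniles. Its day 3 mean was 64.4% of the juvenile mean, the highest among members, but its replicates spread so widely that the days overlapped.

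The 18 members with an intermediate excess had higher medians on later days. The bounds of the group hold their day 0 level low, so this is partly fixed. Their median level was 15.7% of the juvenile one on day 0, 21.3% on day 3, 26.3% on day 5 and 31.0% on day 7. The most abundant, the twelfth of all members, averaged 23.9, 27.0, 28.9 and 26.6 CPM on days 0, 3, 5 and 7 and 98.9 CPM in juveniles. The next, the twentieth, dipped at day 3. It had 11.3, 5.79 and 7.12 CPM on day 0, 3.62, 3.07 and 4.13 on day 3, 6.88, 6.15 and 6.39 on day 5 and 7.12, 7.22 and 11.03 on day 7, against 42.4, 45.1 and 38.0 CPM in juveniles. All its day 3 libraries lay below all its day 0 and day 5 libraries, and day 7 overlapped day 0.

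The 14 members with at least a 10-fold excess were almost silent in fresh trunks and had higher means on later days. Summed over the 14, they had 1.37 ± 0.263 CPM on day 0, 2.29 ± 0.304 on day 3, 6.88 ± 0.338 on day 5 and 18.6 ± 5.71 on day 7, against 108 ± 21.5 CPM in juveniles (SD, n = 3). In 13 of the 14, each group mean from day 0 to day 7 was above the one before, as in 38 of all 142 members. The group was set by a low day 0 level, which favours higher means on later days. No share over all records was taken, and nothing is read from this count. Their median level was 1.07% of the juvenile one on day 0, 1.75% on day 3, 9.74% on day 5 and 17.7% on day 7, and none passed 39.8% at day 7. For 5 members of this group no count was seen on day 0. With a floor of 3 counts over the day 0 group, these 5 were at least 31.0-fold to at least 168-fold higher in juveniles. Such floors cover counting error only.

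The most abundant of the 14, the seventeenth of all members, had 0.443, 0.608 and 0.463 CPM on day 0 and 0.744, 0.705 and 0.835 CPM on day 3. It had 1.58, 1.73 and 2.66 CPM on day 5 and 5.97, 7.59 and 12.4 CPM on day 7, against 50.8, 74.8 and 45.9 CPM in juveniles. Each day stood clear of the one before, and day 7 was at 15.1% of the juvenile mean. The next, at place 34, had 0.0492, 0.174 and 0.0868 CPM on day 0, 0.210, 0.380 and 0.167 on day 3, 0.508, 0.325 and 0.410 on day 5 and 1.38, 2.05 and 3.33 on day 7, against 13.5, 18.1 and 9.86 CPM in juveniles. Its day 5 libraries overlapped day 3, while day 7 lay above all earlier libraries. The member at place 53 had no count on day 0 and a single count on day 3. It had 0.254, 0.244 and 0.0864 CPM on day 5 and 0.350, 0.305 and 0.612 CPM on day 7, against 5.44, 6.72 and 4.77 CPM in juveniles. Day 7 of this member was at 7.48% of the juvenile mean.

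Day 5 was compared with day 3 because neither group had been used to choose the members. Of the 142 members 4 were called higher at day 5 and 0 lower (edgeR, adjusted p under 0.05), beside 0.0171% of all tested records higher and 0.00214% lower. The whole table held 8 higher calls, and that number was unstable: with 1 library left out it lay between 2 (without day 3 replicate 3) and 17 (without day 0 replicate 3). All 4 members called belonged to the 14 with the 10-fold excess. At an unadjusted p under 0.05, 25 members were higher and 5 lower, beside 2.72% and 3.77% of all records. DESeq2 called 4 members higher and 0 lower of the 123 to which it gave an adjusted p. Of all 29520 records to which it gave one, it called 0.122% higher and 0.119% lower (36 and 35 records). The median log2 fold change was 0.16 over the members and 0.00 over all tested records, and 102 of the 142 members lay above 0.

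The 4 calls were few, and 1 library could move them. Without day 3 replicate 3 only 1 member was called, without day 3 replicate 2 or day 5 replicate 1 it was 2, and in a fit of days 3 and 5 alone it was 1. Without day 0 replicate 3, day 3 replicate 3 and day 7 replicate 2, libraries taken as lying apart from their groups, it was 5, of 428 records called higher in all. In the members' summed CPM, day 3 replicate 3 and day 7 replicate 2 were in the middle of their groups.

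GDAG01066475.1 gave the smallest p. It had no count on day 0, and 0.0572, 0.0271 and 0.0239 CPM on day 3. It had 0.542, 0.812 and 0.756 CPM on day 5 and 1.15, 0.807 and 1.38 CPM on day 7, against 4.24, 3.73 and 3.25 CPM in juveniles. The day 5 and day 3 libraries did not overlap, with 97 counts over day 5 and 5 counts over day 3. The fitted log2 fold change was 4.08 (SE 0.39, edgeR adjusted p = 0.000929), and it rests on those few day 3 counts. At day 7 this transcript had 29.8% of the juvenile mean.

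GDAG01087855.1 had 0.0492, 0.0579 and 0.174 CPM on day 0 and 0.153, 0.0814 and 0.0716 CPM on day 3. It had 0.576, 0.758 and 0.626 CPM on day 5 and 1.36, 1.05 and 1.76 CPM on day 7, against 6.88, 6.22 and 5.67 CPM in juveniles. Days 0 and 3 overlapped, and each later day stood clear of the one before. The log2 fold change of day 5 over day 3 was 2.57 (SE 0.33, edgeR adjusted p = 0.0107). Its adjusted p was 0.0545 without day 3 replicate 3 and 0.13 when days 3 and 5 were fitted alone.

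The other two called members, outside the rule for printed names, stood at places 100 and 43 by juvenile level. The first of them had no count on day 0, 0.0382, 0.0271 and 0.0477 CPM on day 3, 0.508, 0.352 and 0.324 on day 5 and 0.741, 0.632 and 0.750 on day 7, against 1.75, 2.06 and 1.52 CPM in juveniles. Its log2 fold change of day 5 over day 3 was 3.30 (SE 0.42, edgeR adjusted p = 0.0118), from 58 counts over day 5 and 5 over day 3. The second had 0.295, 0.463 and 0.434 CPM on day 0, 0.591, 0.597 and 0.453 on day 3, 1.42, 1.44 and 1.43 on day 5 and 2.43, 1.504 and 2.47 on day 7, against 7.77, 7.65 and 7.58 CPM in juveniles. Its day 5 replicates were nearly equal, and its log2 fold change of day 5 over day 3 was 1.37 (SE 0.19, edgeR adjusted p = 0.0174).

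The members with the smallest p among those lower at day 5 did not pass the test. GDAG01039885.1 had 0.836, 0.869 and 0.868 CPM on day 0, 1.32, 1.41 and 1.34 on day 3, 0.982, 1.11 and 0.886 on day 5 and 0.782, 1.16 and 1.38 on day 7, against 2.37, 2.28 and 2.28 CPM in juveniles. Its day 5 libraries lay below its day 3 libraries, and its log2 fold change was -0.45 (SE 0.17, edgeR adjusted p = 0.7). GDAG01067983.1 had 2.75, 2.14 and 2.26 CPM on day 0, 2.17, 4.61 and 5.39 on day 3, 2.22, 1.598 and 3.17 on day 5 and 2.92, 3.49 and 2.92 on day 7, against 5.95, 7.81 and 6.28 CPM in juveniles. Its days 5 and 3 overlapped, and its log2 fold change was -0.79 (SE 0.3, edgeR adjusted p = 0.704).

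**Figure D3:**
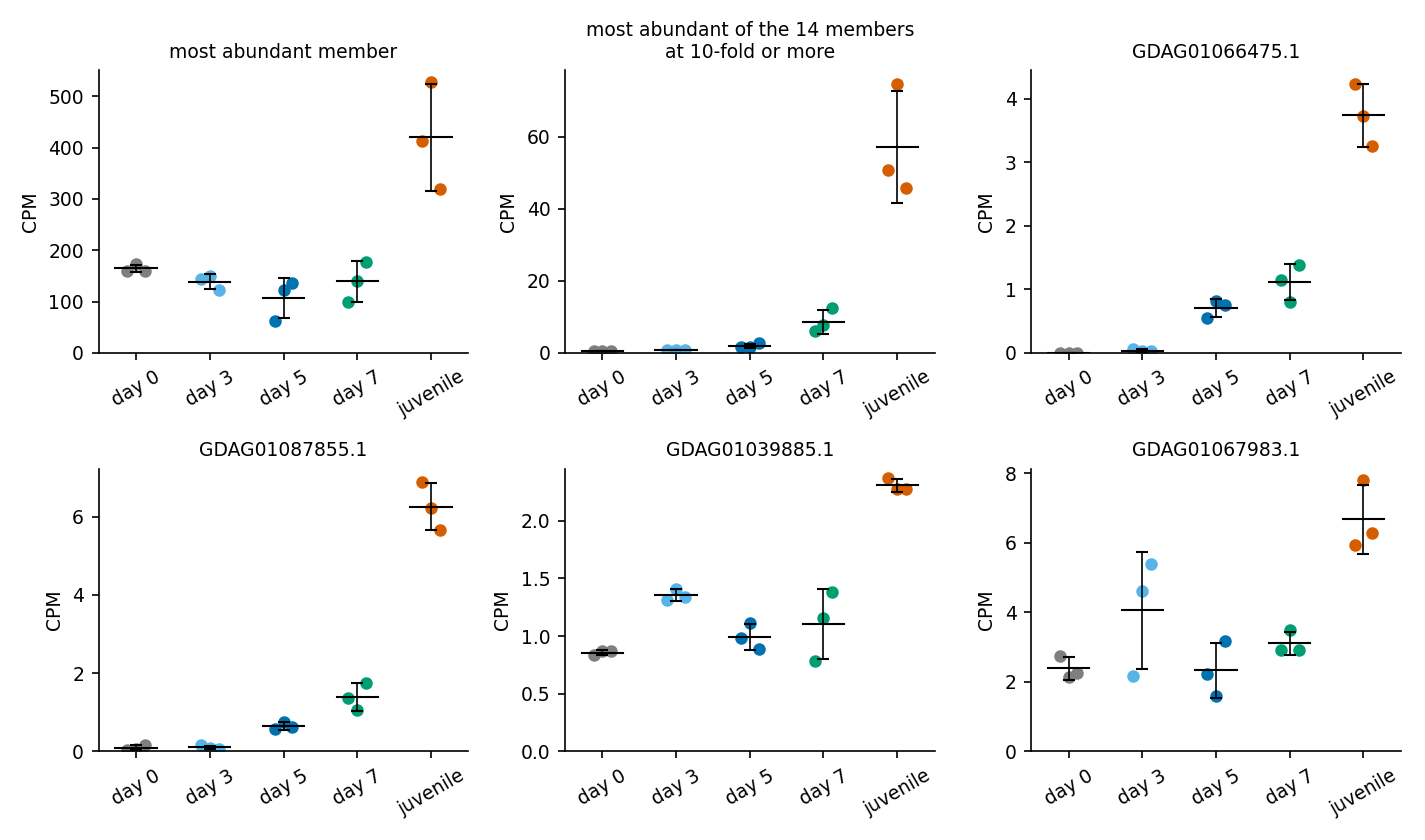
CPM in each library (points), group means (lines) and SD (error bars, n = 3) for the most abundant member, the most abundant of the 14 members with a 10-fold excess, and the 4 members named in the text; each axis starts at 0. The transcripts near 0 on day 0 are higher on day 7 and below every juvenile library, while the most abundant member overlaps itself between days 0 and 7.

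By group, the unadjusted p was under 0.05 for 10 higher and 0 lower of the 14 members with a 10-fold excess, beside the 2.72% and 3.77% of all records given above. It was for 7 higher and 0 lower of the 18, and for 8 higher and 5 lower of the 110. Of the 14, 5 had 5 or fewer counts over day 3, and such members entered the test through the groups where they are higher. They could hardly come out lower at day 5, so the 0 lower of the 14 is partly fixed. Among these 5 are GDAG01066475.1 and the member at place 100, both called higher. With days 3 and 5 fitted alone, 129 of the 142 members had enough counts to be tested, and 20 were higher at an unadjusted p under 0.05. The median log2 fold change of day 5 over day 3 was 1.82, 0.46 and 0.10 in these groups. All 3 libraries of day 5 lay above all 3 of day 3 for 30 of the 142 members (21.1%), as they did for 6.09% of all tested records. The reverse held for 6 members (4.23%), beside 7.1% of all records.

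**Figure D4:**
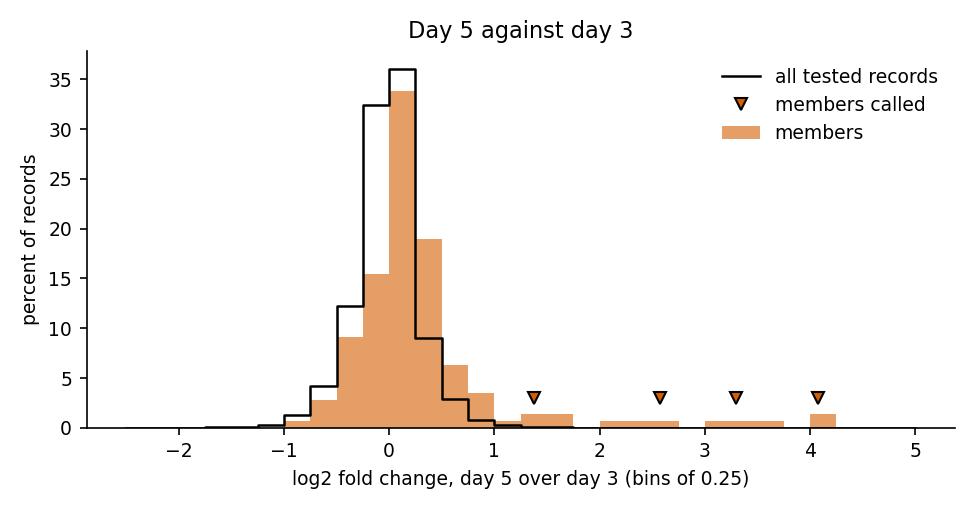
Distribution of the log2 fold change of day 5 over day 3 in bins of 0.25, as a percent of the 142 members (bars) and of all 46736 tested records (line). The 4 called members (triangles) lie between 1.37 and 4.08, and the median member lies at 0.16.

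Comparisons that involve day 0 or day 7 share libraries with the choice, and nothing is read from their counts. At day 3, 1 member was called higher than on day 0 and 3 lower, beside 3.02% and 5.48% of all records. At day 5, 14 were higher and 4 lower, beside 3.23% and 5.64%. At day 7, 26 were higher and 6 lower than on day 0, beside 7.87% and 16%. Members were chosen for a low day 0 level relative to juveniles, which favours higher calls. They were also chosen for a low day 7 level, which favours lower ones. Of the 26, 12 came from the group of 14, 7 from the group of 18 and 7 from the group of 110. These comparisons share the day 0 libraries. At day 7, 14 members were called higher than at day 3 and 0 lower (edgeR), beside 0.424% and 0.787% of all records, and 10 of those 14 calls were in the group with the 10-fold excess. At an unadjusted p under 0.05 in the same test, 36 members were higher and 1 lower, beside 2640 and 3053 of all 46736 tested records.

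The 321 juvenile-high records that reached 50% of the juvenile level at day 7 are the closest set, and they shared the day 0 and juvenile criteria. Their levels are given as a percent of the juvenile mean, which also divided the sets, so a gap between them at any day is partly fixed by the choice. On day 0 the members were at a median of 32.6% of the juvenile level and the 321 at 36.0%. At day 3 the members were at a median of 32.9% of the juvenile level and the 321 at 53.0%. At day 5 the members were at 37.4% and the 321 at 58.0%. The mean was under 50% of the juvenile mean in 131 of 142 members and 121 of the 321 at day 3, and in 124 of 142 members and 63 of the 321 at day 5. All libraries of days 3 and 5 lay below all juvenile libraries for 138 of the 142 members and 259 of the 321, beside 20.5% of all tested records. Both sets were chosen for high juvenile levels, and nothing is read from these counts. The step between days 3 and 5 does not involve juveniles. Its median log2 fold change was 0.16 in the members and 0.12 in the 321, and the libraries did not overlap, with day 5 higher, for 21.1% and 20.6%. EdgeR called 4 of the members and 2 of the 321 higher at day 5. At an unadjusted p under 0.05, 25 of the 142 members were higher and 5 lower, and 56 of the 321 were higher and 8 lower. So the excess of higher records at day 5 was not particular to the members. These differences between the sets were not tested.

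**Figure D5:**
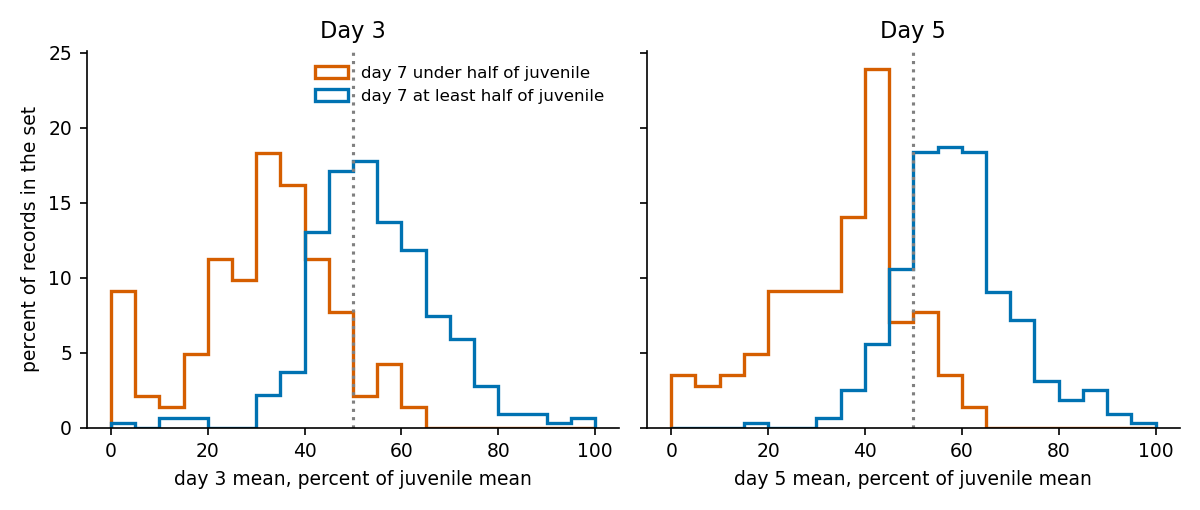
Mean level at day 3 (left) and day 5 (right) as a percent of the juvenile mean, for the 142 members (orange) and the 321 juvenile-high records that reached 50% by day 7 (blue), in bins of 5% as a percent of each set. The medians are 32.9% and 53.0% at day 3, and 37.4% and 58.0% at day 5; the dotted line marks 50%.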

How the data were processed

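The table the authors deposited gives whole-number read counts for each record and library. Totals differ between columns, so the counts were taken as unnormalized. Bowtie2 is named in the submitters' processing notes. For version, counter and target sequences the sources used here give nothing. The labels' protocols name a TruSeq version 2 kit, which does not record strand, so overlapping transcripts of opposite strands cannot be told apart, and near-identical records may share reads.

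CPM values divide counts by the column total of all records. Tests used edgeR 4.0.16 in R 4.3.3 (limma 3.58.1): filterByExpr (minimum count 10, minimum total 15), TMM factors, and a robust quasi-likelihood model of the 15 libraries by group, leaving 10 residual degrees of freedom. Benjamini-Hochberg adjustment covered all 46736 tested records. DESeq2 1.42.0 was an alternative. The script was tested on simulated data. The rule for printed names took the 2 members higher and the 2 lower at day 5 than at day 3 with the smallest p. Members, lists and tests were chosen with earlier results of these data known. Alternatives changed the scaling, filter, tool, block, libraries and thresholds.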

Additional observations from a re-analysis of the deposited data

Results flagged for a closer look

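Outside the assembly records, 531 records carry other identifiers, and none of them could be a member. Their counts are part of the library totals, and those with enough counts are among all tested records. Of the 531, 18 met both juvenile criteria and 8 met the whole rule apart from the identifier. The sum of the 8 was 8.45 ± 0.624 CPM on day 0, 10.3 ± 1.73 on day 3, 13.2 ± 1.69 on day 5 and 13.6 ± 1.73 on day 7, against 30.4 ± 0.407 CPM in juveniles (SD, n = 3). For 4 of the 8, an assembly record among the 142 members had a count within 10% in every library. Whether these 4 are the same transcripts as those members was not tested. The fragment libraries all lay below the juvenile ones, which for days 0 and 7 largely follows from the rule.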

How the results depend on the processing

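The number of members depends on the thresholds and the scale. The 142 became 52 on TMM-scaled library sizes, 227 and 90 with a juvenile floor of 0.5 and 2 CPM, 32 with a 4-fold excess over day 0, and 53 and 333 with a day 7 limit of 33.3% and 66.7%. Leaving out 1 library of day 0, day 7 or juveniles gave 130 to 155 members. Leaving out 1 replicate number in all of these groups, an alternative chosen after the data were seen, gave 138 to 176. The records themselves changed more than their number. Without 1 juvenile library 111 to 122 of the 142 were kept, and without 1 replicate number 103 to 119. The share of counts held by the members was 0.127% on day 0 on TMM-scaled sizes. Without the 10 most abundant members it was 0.0415%, 0.044%, 0.0457%, 0.047% and 0.135% on days 0, 3, 5 and 7 and in juveniles. Without the most abundant one, also chosen after the data were seen, it was 0.099%, 0.105% and 0.108% on days 0, 3 and 5. Leaving out 1 library gave 0.117 to 0.12% on day 3 and 0.114 to 0.123% on day 5.

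Day 5 against day 3 gave 4 members higher and 0 lower under TMM, under size factors of the RLE kind, without the low-count filter, at a minimum count of 50, at 2-fold and with the replicate block, and 1 higher when the groups were fitted alone. Leaving out 1 of the 15 libraries gave 1 to 4 higher and 0 lower. Leaving out the 3 taken as lying apart gave 5 and 0, while 428 records in all were then called higher. Libraries with the same number did not deviate together in every pair (correlations of 0.21, -0.07 and 0.23 between days 5 and 3). The other groups were not compared in this way, so whether same-numbered libraries were paired cannot be told. The cause of these shifts was not tested. On TMM-scaled sizes the summed level at day 3 was below that at day 0 (0.119% and 0.127% of the scaled counts), where on library totals it was above it (0.119% and 0.115%). No fold change or count of calls listed here reversed. Depth limits the scarcest members: 9 had 5 or fewer counts over day 0 and 6 over day 3.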

Other observations

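Juvenile libraries differed among themselves in these transcripts. Replicate 2 was the highest juvenile library for 71 of the 142 members, and replicate 3 was the lowest for 74. The highest juvenile library was over 2 times the lowest for 10 members. The eighth most abundant member had 155, 162 and 82.35 CPM in juveniles, while the sixth ran the other way with 126, 141 and 173 CPM.

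Some members kept nearly constant proportions. Among the 57 members with at least 20 counts in every library, 6 pairs kept their count ratio within 15% of its mean in all 15 libraries, and 10 members were in such pairs. The sixth and seventh most abundant members had a ratio between 0.976 and 1.13. No pair of members was within 10% in every library. Whether such pairs belong to 1 gene was not tested.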
